A study of Papio hamadryas with 11 samples.

Results

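The miR-130 and miR-301 family comprised hsa-miR-130a-3p, hsa-miR-130b-3p, hsa-miR-301a-3p, hsa-miR-301b and hsa-miR-454-3p, 5 of the 1921 mature miRNA names in a small RNA sequencing table of fetal baboon liver (Papio hamadryas). The members were chosen by name, as a family with a shared seed, and for a name on several precursors the row with the most reads over all libraries would have been taken. Each of the 5 names stood on 1 precursor row, so read totals decided nothing. The family was proposed with earlier results of these livers known, in which miR-301a-3p had passed the threshold between maternal groups. Its values in that contrast, and within each sex of the same livers, are therefore a description and lend no independent support. All 5 names had reads, among 645 names with reads in all.

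The livers came from 5 fetuses of obese mothers (MO, 3 female and 2 male) and 6 fetuses of control mothers (CON, 3 female and 3 male), all near term at 0.9 of gestation. The labels name no maternal diet, no definition of obesity and no cell fraction, so each sample stands for whole liver tissue. The study asked how maternal obesity affects miRNA abundance in the fetal liver. Each liver gave 1 library.

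MicroRNAs are short RNAs that guide Argonaute proteins to messenger RNAs, mostly by pairing of the seed near the 5′ end of the miRNA. Members of 1 seed family therefore have largely shared predicted targets, even when they are transcribed from different loci. In human and mouse cells miR-130 represses PPARG, the master regulator of fat cell formation, and miR-130a has been described in endothelial cells and blood progenitors. In the human genome miR-301a and miR-454 lie together in the gene SKA2, miR-130b and miR-301b are neighbours on another chromosome, and miR-130a has a locus of its own. The a and b members are near-identical in sequence, and how a read matching several names was counted is not stated in the labels or headers, so the split of reads between miR-130a-3p and miR-130b-3p, and between miR-301a-3p and miR-301b, is uncertain.

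Libraries were deeper in the MO group, with 660569 to 767137 reads on known miRNAs, against 247288 to 319919 in the CON group (ratio of means 2.52, two-sided exact permutation test p = 0.00216, the smallest this design allows, n = 5 and 6). The sample titles number the MO libraries in a later block than the CON libraries, so a library batch and maternal obesity cannot be told apart and no within-batch value could be had. Levels are given as CPM, the counts-per-million scale after correction by TMM factors, unless TMM is said to be left out. CON replicate 4 stood apart from the other livers. The median correlation of its log2 CPM with theirs was 0.949, while the other 10 livers had between 0.979 and 0.985. In a bulk sample, a change in the share of a cell type and a change in RNA per cell cannot be told apart.

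The liver label was checked against the hepatocyte marker miR-122-5p, which was abundant in both groups. It stood at 145358 ± 31061 CPM in MO livers and 176124 ± 29816 CPM in CON livers (SD, n = 5 and 6). Not every hepatocyte marker was abundant: miR-885-5p stood at 77.5 ± 20.4 CPM in MO livers and 157 ± 15.6 CPM in CON livers. The family was far less abundant than miR-122-5p. Its summed level was 610.1 ± 16.03 CPM in MO livers and 466 ± 82.7 CPM in CON livers (457 ± 89.01 CPM without CON replicate 4). miR-130a-3p led the family with a mean of 293 CPM over the 11 livers, followed by miR-301a-3p at 168 CPM, miR-454-3p at 40.1 CPM, miR-130b-3p at 24.8 CPM and miR-301b at 5.74 CPM. By mean level these ranked 102, 121, 206, 235 and 333 in the table. Within each liver miR-130a-3p had more reads than miR-301a-3p in 11 of 11 livers, although the ranges of these neighbours overlapped across livers. miR-454-3p had more reads than miR-130b-3p in 9 of 11 livers and their ranges overlapped. The ranges of miR-301a-3p and miR-454-3p did not overlap, nor did those of miR-130b-3p and miR-301b. The order compares reads per mature miRNA of similar length, and unequal capture of different sequences by the library chemistry was not tested.

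**Figure D1:**
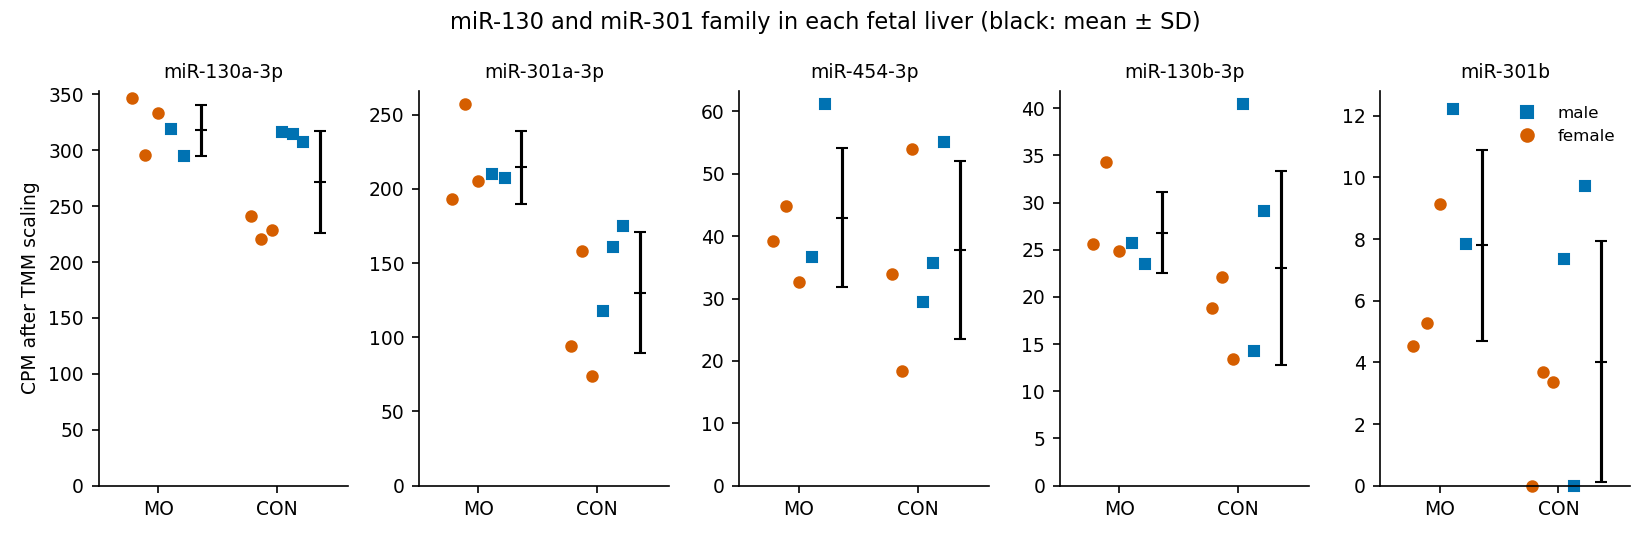
Level of each member in each liver, as CPM after TMM scaling on a linear axis from 0. Points are livers (blue squares male, orange circles female), and the black marks give the mean and SD of 5 MO and 6 CON livers. All MO livers lie above all CON livers for miR-301a-3p, and for miR-130a-3p the 3 CON females lie below every other liver.

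Of the 3 members that passed the filter on low counts, miR-301a-3p alone was called between the maternal groups. This miRNA is known to promote NF-kappaB activity in human cancer cells. Its level was 193, 257, 205, 210.3 and 207 CPM in MO replicates 1 to 5, against 94.1, 158, 74.1, 118, 161 and 175 CPM in CON replicates 1 to 6. Every MO liver was above every CON liver, with MO replicate 2 the highest of all and CON replicates 1 and 3, both female, the lowest. These levels rested on 128 to 195 reads per MO library and 22 to 54 reads per CON library. The mean was 215 ± 24.7 CPM in MO livers and 130.02 ± 40.8 CPM in CON livers, a log2 change of 0.72 (SE 0.21, edgeR quasi-likelihood test, adjusted p = 0.0353 over 218 miRNAs). After all libraries were thinned to the depth of the shallowest, in a single random draw, it was 0.85 (adjusted p = 0.0175).

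Of the 5 members, 3 passed the filter on low counts (miR-130a-3p, miR-301a-3p and miR-454-3p), and 1 of the 3 was called. Among all tested miRNAs, 11.01% were called in either direction, 4.59% as higher with maternal obesity, and 3.21% had every MO liver above every CON liver. The 3 tested members had a median log2 change of 0.23, where all 218 tested miRNAs had a median of -0.05. Being past the threshold depended on the libraries in the fit: the call of miR-301a-3p held in 4 of 11 fits with a single library removed. The adjusted p was 0.0878 without CON replicate 1, 0.0630 without CON replicate 3, 0.0589 without CON replicate 4, 0.0916 without MO replicate 2, 0.0626 without MO replicate 3, 0.0599 without MO replicate 4 and 0.0560 without MO replicate 5. The log2 change stayed between 0.61 and 0.83 in these fits.

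**Figure D2:**
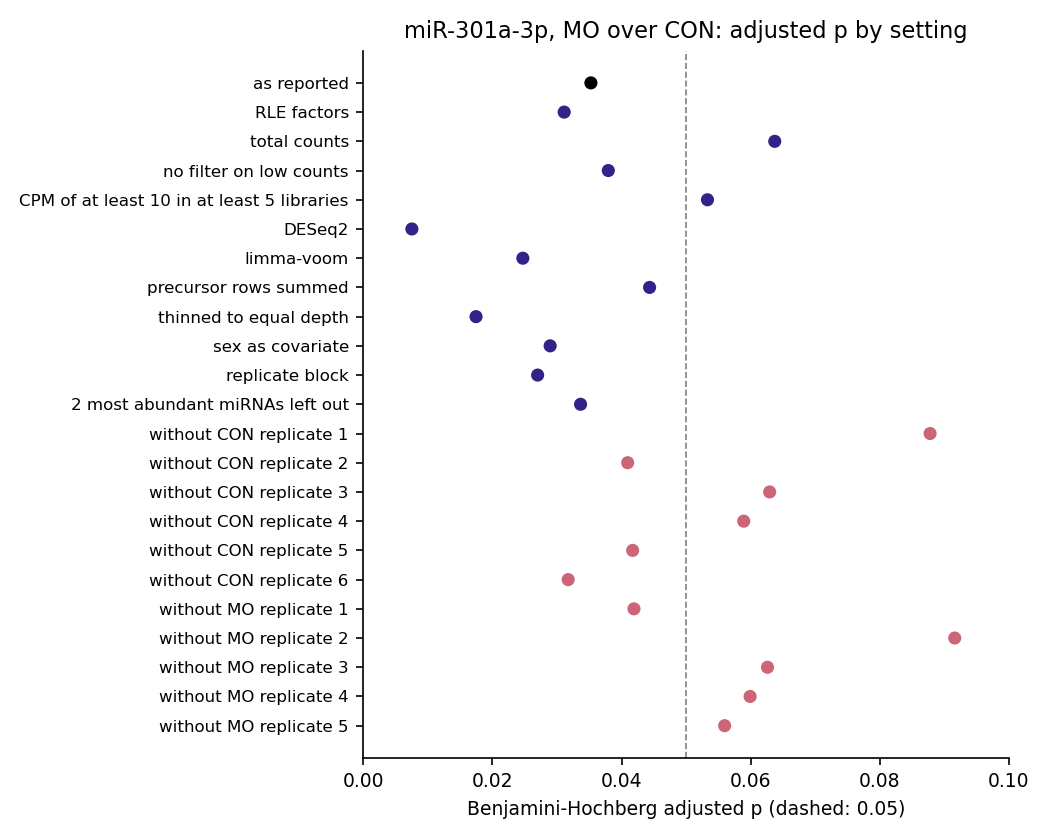
Adjusted p of miR-301a-3p between MO and CON livers under each setting (black, as reported; dark blue, other scalings, filters, tests and models; pink, 1 library left out). The dashed line is the threshold of 0.05. The points run from 0.00752 with DESeq2 to 0.0916 without MO replicate 2, on both sides of the threshold.

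miR-130a-3p, the most abundant member, did not pass. It stood at 347, 295.5, 333, 319 and 295.1 CPM in MO replicates 1 to 5, against 241, 221, 229, 317, 314 and 308 CPM in CON replicates 1 to 6. The 3 CON females were the lowest livers, while the 3 CON males lay within the MO range. The means were 318 ± 23.01 CPM in MO livers and 272 ± 45.7 CPM in CON livers (log2 0.23, SE 0.14, adjusted p = 0.355). Without CON replicate 4 the log2 change was 0.25 (adjusted p = 0.255), and after thinning to equal depth it was 0.19 (adjusted p = 0.526).

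miR-454-3p, which shares the SKA2 host gene with miR-301a in humans, did not pass either. MO replicates 1 to 5 had 39.2, 44.8, 32.7, 36.6 and 61.2 CPM, against 33.9, 18.4, 53.9, 29.5, 35.7 and 55.1 CPM in CON replicates 1 to 6. The groups overlapped over most of their range. The log2 change was 0.17 (SE 0.27, adjusted p = 0.792), on 25 to 39 reads per MO library and 5 to 17 reads per CON library. Without CON replicate 4 it was 0.09 (adjusted p = 0.876), and after thinning to equal depth it was 0.50 (adjusted p = 0.397). At the lowest of these counts, 5 reads in CON replicate 2, the level was 16.9 CPM without TMM scaling, with an exact Clopper-Pearson 95% interval of 5.48 to 39.4. Intervals cover counting error only. They may be too narrow even for that, since reads without molecular identifiers are not independent molecules.

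The low members of the shared miR-130b and miR-301b locus did not pass the filter. In a fit with no filter, on all 645 names with reads, neither was called (log2 0.29, SE 0.36, edgeR adjusted p = 0.691 for miR-130b-3p, and log2 0.96, SE 0.66, adjusted p = 0.475 for miR-301b). miR-130b-3p, reported as a secreted miRNA in obesity, had 25.7, 34.3, 24.8, 25.8 and 23.5 CPM in MO replicates 1 to 5, against 18.8, 22.1, 13.5, 40.5, 14.3 and 29.2 CPM in CON replicates 1 to 6. The groups overlapped, and the highest liver was CON replicate 4, on 11 reads. The mean was 26.8 ± 4.27 CPM in MO livers and 23.1 ± 10.3 CPM in CON livers.

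miR-301b was at the limit of detection. It had 3 to 9 reads in each MO library and 0 to 3 reads in each CON library. There were none in CON replicates 1 and 5. In these libraries 3 reads, a one-sided bound on a count of 0, correspond to 11.3 and 10.7 CPM. The exact two-sided 95% upper limits were 13.4 and 14.1 CPM without TMM scaling. Pooled over the group, without TMM scaling, 28 reads in MO livers gave 7.85 CPM (exact 95% interval 5.21 to 11.3) and 7 reads in CON livers gave 4.12 CPM (1.66 to 8.48). These intervals cover counting error only, not the spread between livers.

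Nearly all reads of these precursors fell on the family arm. miR-130b-5p had 4 reads over the MO livers and 4 over the CON livers. miR-454-5p had 3 reads in MO and 2 in CON livers, miR-301a-5p had 1 in MO and 0 in CON livers, and miR-130a-5p had 0 in both groups. The related names miR-3666 and miR-4295 also had 0 reads. The ratio of arms could not be compared on these counts.

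Within the family, miR-301a-3p took 35.1% ± 3.20 of the summed CPM in MO livers and 27.6% ± 6.40 in CON livers, and miR-130a-3p took 52.2% ± 4.23 in MO livers and 58.4% ± 4.48 in CON livers. The MO livers had 0.557, 0.871, 0.616, 0.660 and 0.702 reads of miR-301a-3p per read of miR-130a-3p in replicates 1 to 5. In the CON livers the ratio was 0.391, 0.717, 0.324, 0.372, 0.511 and 0.568 in replicates 1 to 6. The groups overlapped: CON replicate 2, a female, was above 4 of the MO livers, and CON replicate 6, a male, was above MO replicate 1. The ratio of miR-301a-3p to miR-454-3p was 5.21 ± 1.13 in MO livers and 4.07 ± 2.47 in CON livers, and ran from 3.38 to 6.28 in MO livers and from 1.38 to 8.60 in CON livers. The observed ratio of these host-gene partners thus varied widely across livers, on 5 to 17 reads of miR-454-3p per CON library. Whether it varied by more than counting error was not tested. No test was run on these ratios.

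**Figure D3:**
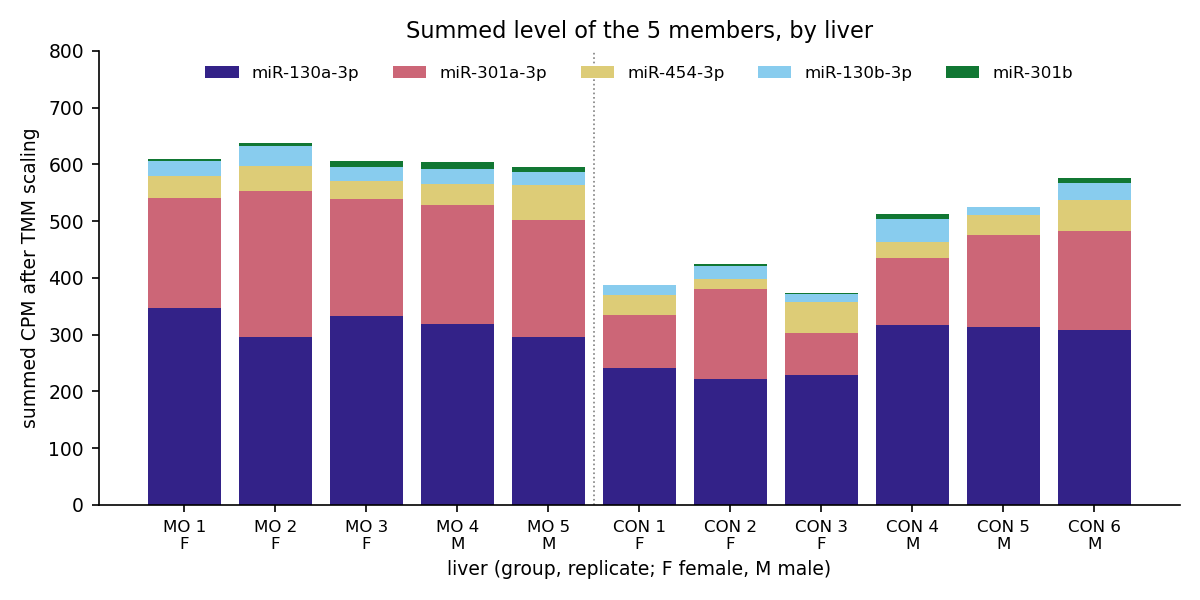
Summed CPM of the 5 members in each liver (F female, M male), with each member's part stacked. The 5 MO livers stand at 595 to 637 CPM, the 3 CON males at 512 to 577 CPM and the 3 CON females at 374 to 424 CPM.

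By sex, the CON females were the low livers in the summed level of the family. For every single member but miR-130a-3p, CON females and CON males overlapped. The summed level was 610, 637 and 605 CPM in MO females, against 388, 424 and 374 CPM in CON females. In males it was 604 and 595 CPM with maternal obesity, against 512, 525 and 577 CPM in CON males. On the TMM scale MO livers were above CON livers in each sex, with a wider gap in females. Among single tested miRNAs this separation was present in 11.01% in females and in 14.2% in males. Without TMM scaling, CON replicate 6 (178 family reads of 298414) was above both MO males (445 of 767137 and 379 of 660569). The sum was given no test.

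Among female fetuses, miR-301a-3p averaged 219 ± 34.02 CPM in MO livers and 109 ± 44.04 CPM in CON livers (n = 3 each). The log2 change was 1.01 (SE 0.27, edgeR quasi-likelihood test, adjusted p = 0.0486). This was the 1 member called in females, where 5.96% of tested miRNAs were called. The call rests on livers of the contrast that was known beforehand, so it lends no independent support. The call held in 2 of 11 fits with a single library removed, with log2 changes of 0.77 to 1.37 and adjusted p between 0.0238 and 0.219, and was lost without CON replicate 1, 3, 5 or 6 or without any 1 MO library. Without CON replicate 4 it held (log2 1.00, adjusted p = 0.0238). In a fit on female livers alone the log2 change was 1.03 and did not pass (adjusted p = 0.0652).

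miR-130a-3p in females averaged 325 ± 26.8 CPM in MO livers and 230.4 ± 10.03 CPM in CON livers, with no overlap between the groups. Among all tested miRNAs, 11.01% had every MO female above every CON female. The log2 change was 0.50 (SE 0.16, adjusted p = 0.0860) and did not pass (0.49 and adjusted p = 0.0566 without CON replicate 4). With library totals in place of TMM factors it was 0.62 and passed (adjusted p = 0.0435). miR-454-3p stood at 38.9 ± 6.10 CPM in MO females and 35.4 ± 17.8 CPM in CON females (log2 0.12, adjusted p = 0.919, and 0.51 after thinning to equal depth, adjusted p = 0.642). miR-130b-3p, below the filter, had 24.8 to 34.3 CPM in MO females and 13.5 to 22.1 CPM in CON females, on 4 to 6 reads per CON library.

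Among male fetuses no member passed, where 4.13% of tested miRNAs did. miR-301a-3p was at 210.3 and 207 CPM in MO males, against 118, 161 and 175 CPM in CON males. The groups did not overlap, as for 14.2% of tested miRNAs in that direction, and the log2 change was 0.46 (SE 0.29, edgeR adjusted p = 0.384), 0.28 without CON replicate 4 (adjusted p = 0.721) and 0.76 after thinning to equal depth (adjusted p = 0.150). miR-130a-3p was at 319 and 295.1 CPM in MO males, against 317, 314 and 308 CPM in CON males (log2 -0.03, SE 0.17, adjusted p = 0.987). Without TMM scaling its CPM was 306 and 285 in MO males, against 348, 336 and 318 in CON males, so that both MO males were below all CON males (log2 -0.18, adjusted p = 0.558), as for 27.1% of tested miRNAs on that scale. miR-454-3p had a log2 change of 0.26 (SE 0.41, adjusted p = 0.768), 0.06 without CON replicate 4 (adjusted p = 0.954) and 0.58 after thinning to equal depth (adjusted p = 0.550).

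**Figure D4:**
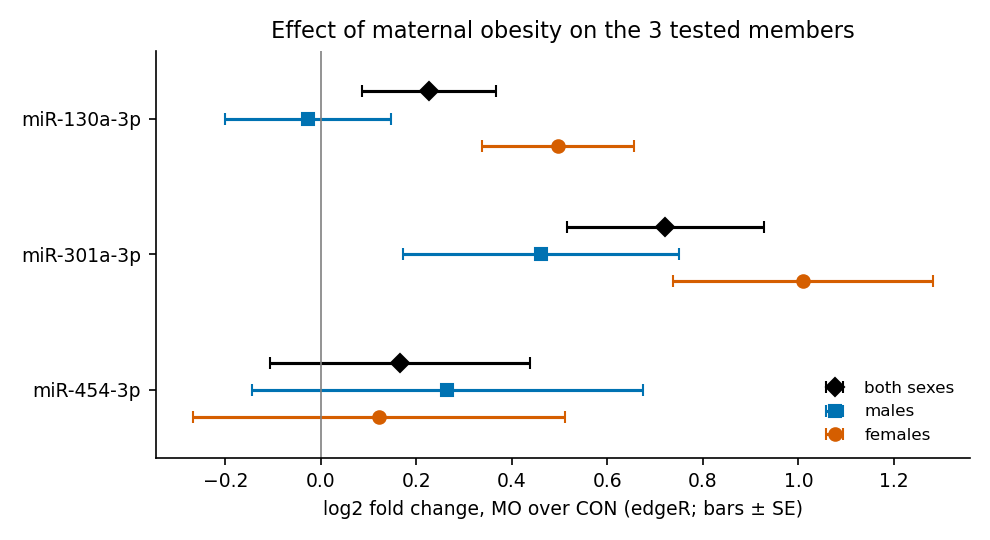
Log2 fold change of MO over CON livers for the 3 tested members (edgeR), over both sexes, in males and in females, with bars of 1 SE on each side. The estimates for males lie to the left of those for females in miR-130a-3p (-0.03 in males, 0.50 in females) and miR-301a-3p (0.46 in males, 1.01 in females), but not in miR-454-3p (0.26 in males, 0.12 in females).

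The test of the difference between the sexes itself called none of the 3 members, and 0 of 218 miRNAs in the table (0.00%; 14 at an unadjusted p under 0.05; 0 also in DESeq2 and limma-voom). For miR-130a-3p the male minus female difference in the log2 change was -0.52 (SE 0.24, unadjusted p = 0.0464, edgeR adjusted p = 0.575). For miR-301a-3p it was -0.55 (SE 0.40, adjusted p = 0.635) and for miR-454-3p 0.14 (SE 0.57, adjusted p = 0.976). The miR-301a-3p value was -0.27 without CON replicate 3, -0.88 without CON replicate 2, -0.28 after thinning to equal depth and -0.83 with library totals in place of TMM factors. It was not called in any of these. A different effect of maternal obesity in males and females was thus not shown for any member.

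Males and females were also compared directly, in a model of condition and sex. None of the 3 members was called, nor was any miRNA in the table (0.00%; 22 at an unadjusted p under 0.05 in edgeR; 0 also in DESeq2 and limma-voom). The log2 difference, males over females, was 0.19 for miR-130a-3p (adjusted p = 0.786), 0.20 for miR-301a-3p (adjusted p = 0.902) and 0.26 for miR-454-3p (adjusted p = 0.902). Within the control group, every male was above every female for miR-130a-3p, at 313 ± 4.63 CPM in males and 230.4 ± 10.03 CPM in females (n = 3 each), a ratio of means of 1.36. This separation, chosen after its values were seen and given no test, was present in 5.05% of tested miRNAs. In the MO group the means were 307 ± 16.7 CPM in males (n = 2) and 325 ± 26.8 CPM in females (n = 3), a ratio of 0.944.

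Relatives of the family were compared with it. The miR-148 and miR-152 family and miR-19 carry the seed of miR-130 shifted by a base, and miR-27 is, like miR-130, a known repressor of PPARG. None of the 7 listed members was called between MO and CON livers, so 0 of 7 stood against 11.01% of all tested miRNAs. miR-148a-3p, abundant in hepatocytes, was at 68474 ± 12459 CPM in MO livers and 61547 ± 6974 CPM in CON livers (log2 0.15, adjusted p = 0.475). miR-148b-3p (log2 0.08), miR-152 (0.27), miR-27a-3p (0.18) and miR-27b-3p (0.15) had adjusted p from 0.388 to 0.846. miR-19b-3p was at 935 ± 190.3 CPM in MO livers and 1552 ± 1716 CPM in CON livers (log2 -0.73, adjusted p = 0.358). The CON mean was carried by replicate 4 at 5052 CPM, and without that liver the log2 change was 0.12. For miR-19a-3p the log2 change was -0.18 (adjusted p = 0.832), and 0.30 without CON replicate 4.

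The tested miRNAs whose profiles over the 11 livers were nearest to each member were found by the root mean square difference of log2 CPM, each miRNA centred on its own mean. For miR-301a-3p these were miR-421 (0.30) and miR-411-5p (0.32), against a median of 0.63 over the miRNAs outside the family. For miR-130a-3p they were miR-374a-3p and miR-381 (0.19 each, median 0.41), and for miR-454-3p miR-15a-5p (0.24) and miR-425-5p (0.35, median 0.54). These were picked as the lowest differences among all tested miRNAs outside the family, so they cannot be weighed against differences within the family. miR-301a-3p and miR-130a-3p differed by 0.41 (medians 0.63 and 0.41), and miR-130a-3p and miR-454-3p by 0.42 (medians 0.41 and 0.54). The host-gene partners miR-301a-3p and miR-454-3p differed by 0.63 (medians 0.63 and 0.54). miR-454-3p had 5 to 17 reads per CON library, and the part of counting error in these differences was not tested.

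Of 27 tested markers on 7 cell type lists, 4 were called between the maternal groups (14.8%, beside 11.01% of all tested miRNAs). Of the 2 endothelial miRNAs, miR-126-5p was higher and miR-126-3p did not pass. Their summed level ran from 12643 to 17097 CPM in MO livers and from 9476 to 14290 CPM in CON livers. Of the 6 mesenchymal and stellate miRNAs, miR-145-3p alone was called, and it was higher (log2 1.39). Its other arm miR-145-5p (log2 -0.09) and miR-214-3p (-0.10) went the other way. miR-143-3p (0.36), miR-199a-5p (0.48) and miR-199b-5p (1.04) were higher but not called. The summed level of the 6 ran from 88657 to 127114 CPM in MO livers and from 73773 to 90667 CPM in CON livers. Of 5 tested leukocyte miRNAs, miR-146a-5p was lower, with sums of 973 to 1262 CPM in MO livers and 1137 to 2037 CPM in CON livers. None of the 4 erythroid or the 4 tested biliary miRNAs was called, and of the 6 hepatocyte miRNAs miR-885-5p was lower (log2 -1.01). The other hepatocyte miRNAs were not called. Their log2 changes were -0.28 for miR-122-5p, -0.05 for miR-192-5p, 0.06 for miR-194-5p, 0.15 for miR-148a-3p and 0.17 for miR-122-3p. The erythroid sums ran from 7302 to 14681 CPM in MO livers and from 7066 to 16724 CPM in CON livers, the biliary sums from 747 to 1316 CPM in MO and from 554 to 1457 CPM in CON livers, and the hepatocyte sums from 379260 to 505083 CPM in MO and from 400907 to 543509 CPM in CON livers. The 4 muscle miRNAs did not pass the filter on low counts, and their sum ran from 21.97 to 958 CPM in MO livers, highest in replicate 2, where miR-301a-3p was also highest, and from 14.3 to 67.8 CPM in CON livers. No marker on these lists was without reads over the 11 livers.

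The summed markers also varied by sex. In females the endothelial sum averaged 16133 CPM in MO and 11075 CPM in CON livers, the mesenchymal sum 110390 CPM in MO and 83767 CPM in CON livers, and the hepatocyte sum 413623 CPM in MO and 514333 CPM in CON livers. In males the endothelial sum averaged 13290 CPM in MO and 11366 CPM in CON livers, the mesenchymal sum 89981 CPM in MO and 75298 CPM in CON livers, and the hepatocyte sum 484619 CPM in MO and 430970 CPM in CON livers. The mean hepatocyte sum was thus lower in MO livers among females and higher among males (n = 2 MO males). miR-885-5p was lower in MO livers in both sexes. Such sums mostly follow their most abundant miRNAs. In MO livers miR-143-3p made up 100964 of the mesenchymal mean of 102226 CPM, and miR-486-5p 9965 of the erythroid mean of 10874 CPM. The sums are therefore no measure of the share of a cell type. The leukocyte sum averaged 1158 CPM in MO and 1374 CPM in CON females, and 1113 CPM in MO and 1675 CPM in CON males. The erythroid sum averaged 11097 CPM in MO and 10813 CPM in CON females, and 10540 CPM in MO and 16147 CPM in CON males. The biliary sum averaged 1076 CPM in MO and 1100 CPM in CON females, and 938 CPM in MO and 1075 CPM in CON males. The muscle sum averaged 367 CPM in MO and 46.4 CPM in CON females, and 26.6 CPM in MO and 20.9 CPM in CON males. The mean of the MO females was carried by replicate 2, at 958 CPM. The part of these cell types in the level of miR-301a-3p was not tested.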

How the data were processed

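Small RNA of 11 fetal livers was sequenced on a Genome Analyzer IIx after miRNeasy extraction and TruSeq small RNA preparation, per the labels' protocols. The authors deposited unscaled read counts, a whole number for each pair of mature miRNA and precursor, in a table whose title names miRDeep2. Human build hg18 is named in the submitters' processing notes and the names are human miRBase names, so baboon reads were assigned to human entries. The labels and headers state neither the aligner nor its mismatch setting. The table repeats its 2234 rows, and each was used 1 time. The normalised columns and the table of predicted miRNAs were not used here.

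For each name 1 precursor row was kept. The quasi-likelihood test of edgeR 4.0.16 was run under R 4.3.3 with TMM factors and filterByExpr defaults by maternal group, which kept 218 names holding at least 99.6% of each library's reads. P-values were Benjamini-Hochberg adjusted over all 218 and called under 0.05. No covariate entered the comparison of maternal groups. Effects by sex and their difference came from a model of condition by sex means, and sexes from a model of condition and sex. CPM values divide counts by the tested total times the TMM factor. Alternatives used DESeq2 1.42.0, limma 3.58.1 (voom), other scalings and filters, thinning to 247288 reads, and fits without each library. Thinning was a single random draw, and the spread of thinned values between draws was not examined. The members, lists and tests were chosen with earlier results of these data known. Named miRNAs are the 5 members, their other arms, 2 related names, 7 relatives, listed markers, and 2 nearest profiles per tested member.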

Additional observations from a re-analysis of the deposited data

Results flagged for a closer look

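Single livers lay apart from the rest of their group in 12 of 90 combinations of a miRNA, or the family sum, and a maternal group, by the gap to the nearest liver over the range of the group. The cutoffs are set for about 1 in 20 groups of independent, normally distributed values. Several flags rest on few reads or on miRNAs that move together in 1 liver. The 12 of 90 can therefore not be weighed against that rate. MO replicate 2 was the highest of its group for miR-130b-3p (34.3 CPM) and miR-301a-3p (257 CPM). CON replicate 4 was the lowest of its group for miR-148b-3p (449 CPM) and the highest for miR-19a-3p (655 CPM) and miR-19b-3p (5052 CPM). MO replicate 5 was the highest of its group for the leukocyte miRNA miR-142-3p (56.5 CPM). Of the muscle miRNAs, which did not pass the filter on low counts, MO replicate 2 was the highest of its group for miR-1 (427 CPM), miR-133a (456 CPM), miR-133b (40.9 CPM) and miR-206 (32.97 CPM). CON replicate 4 was the highest of its group for miR-133b (7.36 CPM) and CON replicate 5 for miR-206 (3.57 CPM), in each case with the other CON livers at 0 reads. The miR-301a-3p call was lost without MO replicate 2 (log2 0.65, adjusted p = 0.0916 in edgeR, the highest of a range from 0.00752 in DESeq2). The part of muscle RNA in that value was not tested.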

How the results depend on the processing

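The log2 change of miR-301a-3p between maternal groups kept its sign in every fit that was run, between 0.61 and 0.86. It passed the threshold in 9 of 11 other settings and in 4 of 11 fits that left out 1 library, so the number of members called ran from 0 to 1 when 1 library was left out. It was 0 with library totals in place of TMM factors (adjusted p = 0.0637) and 0 with a filter of CPM of at least 10 in at least 5 libraries (adjusted p = 0.0533). That filter, planned as the stricter one, kept more names (304). In females the number of members called was 0 with RLE factors, the CPM filter, summed precursor rows, female livers only, or the 2 most abundant miRNAs left out (an alternative chosen after seeing the data), 2 with library totals, and 0 to 1 with 1 library left out. No member was called in males, in the difference between the sexes or between males and females under any setting. Over all miRNAs, 24 were called between maternal groups and 16 to 26 with 1 library left out. In females 13 were called, against 6 with the CPM filter, 5 with summed precursor rows, 8 after thinning, 20 on female livers only and 0 to 25 with 1 library left out. In males 9 were called, against 27 with no filter, 18 in DESeq2, 0 after thinning, 0 on male livers only and 0 to 13 with 1 library left out. With no filter, 11 were called for the difference between the sexes and 6 between males and females. Signs turned only in uncalled values. miR-130a-3p in males was 0.0028 with RLE factors, 0.034 with no filter and 0.0033 in DESeq2, and -0.051 to 0.076 with 1 library left out. With 1 library left out, miR-454-3p ran from -0.19 to 0.56 in females, -0.083 to 0.66 in males and -0.25 to 0.48 for the difference between the sexes, which was -0.12 with library totals. miR-148b-3p ran from -0.056 to 0.19, miR-19a-3p from -0.29 to 0.30 and miR-19b-3p from -0.85 to 0.12. Where a male MO liver was left out, the other one was assumed to vary like the other groups. The cause of these shifts was not tested.

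Replicate numbers are shared between the groups in the labels. Deviations of same-numbered livers from their group means correlated at -0.16 to 0.30, and 1 of 5 MO livers correlated best with its own number, so the numbers were not taken as pairs. With the replicate block, miR-301a-3p had a log2 change of 0.86 (edgeR adjusted p = 0.0270) and 15 miRNAs were called. CON replicate 6 has no MO liver of its number, so the change in that model came from the other livers. Same-numbered livers were of the same sex, so the block also took up sex. Depth limits miR-301b and miR-130b-3p most, since 3 reads correspond to 9.72 to 11.3 CPM in CON livers and 3.92 to 4.71 CPM in MO livers.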
